A study of Mus musculus with 23 samples.

Results

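The day-night difference described here was measured in the tibialis anterior muscle of RE-RE mice, over both treatments of the muscle. Its samples are the 8 RE-RE samples of a series of 23. The 4 collected at Zeitgeber time 12 (ZT12, lights off) were set against the 4 collected at ZT0 (lights on), and each time group held 2 sham samples and 2 samples given 6-hydroxydopamine (6-OHDA). Treatment was a covariate in the fit and the spread came from these 8 samples alone. The choice of samples rested on the labels and not on any measured value.

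All mice were female C57BL/6 fed ad libitum, and RE-RE is the labels' name for mice that are Bmal1(stopFL/stopFL) and carry 2 Cre transgenes, Syt10-Cre(-/tg) and also Hsa-Cre(-/tg). In the stopFL allele a floxed stop cassette keeps Bmal1, listed here by its symbol Arntl, silent until Cre recombinase removes it. Syt10-Cre acts in neurons of the suprachiasmatic nucleus, the light-entrained clock of the brain, and the Hsa (skeletal actin) promoter drives Cre in skeletal muscle fibres, so that other cell types are expected to keep the cassette, including immune cells and fibroblasts within the muscle. 6-OHDA, which destroys the sympathetic nerve terminals that take it up, was injected into the tibialis at 50 mg/kg, and the sham muscle was not injected. The sham RE-RE mice were 10 and 11 weeks old at ZT0 and both 11 weeks at ZT12, while the 6-OHDA mice were 16 and 12 weeks at ZT0 and 15 and 18 weeks at ZT12, so treatment and age cannot be told apart in RE-RE. The wild-type mice used for comparison comprised 4 sham and 4 6-OHDA samples at ZT0 and 3 sham and 4 6-OHDA samples at ZT12, aged 12 to 18 weeks. Ages differ within each RE-RE group except sham ZT12, so the samples of those groups came from different animals. For samples of a group with equal age the labels do not say whether the animals were separate. The tests measure the spread between these samples.

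The mammalian clock is a transcriptional loop. BMAL1 and CLOCK (or its relative NPAS2) bind E-boxes and switch on the period, cryptochrome, Rev-erb and D-box factor genes; the period and cryptochrome proteins shut BMAL1 and CLOCK off, while REV-ERB proteins repress and ROR proteins activate Arntl itself through a shared element. In muscle the loop is known to set daily rhythms of fuel handling, among them glucose uptake and fatty acid oxidation. Arntl message and the messages of its E-box targets are therefore high at opposite times of day.

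The promoter windows of 5 of these genes are shown as examples of the elements through which the loop acts; they were chosen because a match was found in them. Each window runs from 250 bases before to 50 bases after a RefSeq transcription start (GRCm38.p6), and capitals mark the element. The elements searched on both strands were the E-box CACGTG, the D-box TTATGTAA or TTACGTAA, and the ROR element core TAGGTCA. Of 32851 RefSeq promoter windows, 7.15% hold the E-box, 1.06% a D-box and 2.61% the ROR element. The Ciart window (chr3:95882179-95882478, minus strand) holds 3 E-boxes, the Per1 window (chr11:69098699-69098998, plus strand) 1 E-box, and the Per3 window (chr4:151044616-151044915, minus strand) 2 D-boxes. One Arntl start site (chr7:113207261-113207560, plus strand) and the Nfil3 window (chr13:52980990-52981289, minus strand) each hold 1 ROR element. A match is a run of letters and was not tested for binding.
Arntl: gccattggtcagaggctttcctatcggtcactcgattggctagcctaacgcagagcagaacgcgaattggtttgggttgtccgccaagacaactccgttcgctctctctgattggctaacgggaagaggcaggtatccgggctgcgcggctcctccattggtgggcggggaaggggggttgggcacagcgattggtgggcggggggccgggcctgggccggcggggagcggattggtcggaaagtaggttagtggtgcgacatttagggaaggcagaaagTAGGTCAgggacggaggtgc
Ciart: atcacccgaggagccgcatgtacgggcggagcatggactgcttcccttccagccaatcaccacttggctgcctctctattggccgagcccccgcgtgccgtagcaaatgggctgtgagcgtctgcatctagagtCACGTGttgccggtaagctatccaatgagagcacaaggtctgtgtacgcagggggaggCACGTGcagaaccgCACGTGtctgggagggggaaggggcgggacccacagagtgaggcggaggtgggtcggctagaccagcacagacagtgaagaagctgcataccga
Per1: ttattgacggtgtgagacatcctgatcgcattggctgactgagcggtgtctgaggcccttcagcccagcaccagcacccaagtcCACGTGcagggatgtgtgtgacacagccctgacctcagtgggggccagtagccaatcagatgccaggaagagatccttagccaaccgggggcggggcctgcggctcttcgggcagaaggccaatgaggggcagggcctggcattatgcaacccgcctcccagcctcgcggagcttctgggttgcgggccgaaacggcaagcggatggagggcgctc
Per3: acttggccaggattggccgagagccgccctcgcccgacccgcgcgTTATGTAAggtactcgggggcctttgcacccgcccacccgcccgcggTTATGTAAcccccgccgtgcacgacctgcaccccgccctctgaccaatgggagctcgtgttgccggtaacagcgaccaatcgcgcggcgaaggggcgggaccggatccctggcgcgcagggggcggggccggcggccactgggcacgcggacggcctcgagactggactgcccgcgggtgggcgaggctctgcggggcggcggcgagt
Nfil3: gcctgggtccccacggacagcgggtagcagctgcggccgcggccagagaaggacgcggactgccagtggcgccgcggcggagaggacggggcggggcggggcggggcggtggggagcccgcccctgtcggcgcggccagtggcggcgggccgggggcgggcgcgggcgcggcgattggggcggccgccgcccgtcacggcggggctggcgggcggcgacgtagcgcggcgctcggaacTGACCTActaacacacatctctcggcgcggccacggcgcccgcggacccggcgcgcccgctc
Windows were sought for 21 of the 23 clock genes tested. Of these, 18 had a window, of which 5 held an E-box, 1 a D-box and 2 a ROR element. The other E-boxes lay in windows of Cry1, Tef and Bhlhe41, and the Dbp window held none of the 3 elements.

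The RE-RE samples held 21.0 to 31.2 M reads, as far as whole reads could be recovered from the deposited values. Skeletal muscle fibre markers were high in all 8: the 12 listed summed to 40646 to 77430 FPKM (fragments per kilobase of transcript, scaled to sequencing depth), and the 6 neutrophil and lymphocyte markers in the table summed to 0.315 to 4.23 FPKM. Sham sample 1 (ZT0) and sham sample 3 (ZT12) stood apart, with 323050 and 282300 FPKM summed over the mitochondrially encoded genes against 64845 to 195120 in the other 6. They lay together on the second principal component (52.0 and 34.7), which held 18.1% of the variance; of the other 6 samples, 6-OHDA sample 1 came nearest at 19.9. The first component (44.4%) put the 3 samples of 15 to 18 weeks, all of them 6-OHDA, at 35.1 to 89.9. The 5 of 10 to 12 weeks, the sham samples and 6-OHDA sample 2 (-34.3), lay between -64.7 and -9.25. On the log2 scale the median gene had a residual SD of 0.410 among RE-RE samples, beside 0.208 among wild-type samples, and it was larger in RE-RE for 92.3% of genes.

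No gene passed the test for a time difference in RE-RE. Of 12078 genes tested by limma (those at 1 FPKM or more in at least 2 of the 8 samples), 0 had a Benjamini-Hochberg adjusted p under 0.05 (0%), the smallest being 0.332, for Arntl, Hipk2 and Slc8a1 alike. At an unadjusted p under 0.05 there were 409 genes, 137 higher at ZT12 (1.13%) and 272 lower (2.25%). In 77 genes (0.638%) all 4 ZT12 samples lay above all 4 ZT0 samples, and in 100 genes (0.828%) they lay below. Run on the recovered reads, limma-voom also called 0 genes, with 396 at an unadjusted p under 0.05. In wild-type, over the same genes, 353 (2.92%) rose and 354 (2.93%) fell at ZT12 by the adjusted p. The median log2 difference over all genes was -0.03 in RE-RE. The values below are therefore descriptions of these 8 samples unless a test is named. In bulk muscle, fewer cells of a type and less RNA per cell cannot be told apart.

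Arntl, which encodes the BMAL1 protein that the RE-RE allele brings back, had the smallest p of all genes. In sham muscle its level was 11.0 and 14.3 FPKM at ZT0 and 2.83 and 4.07 at ZT12. In 6-OHDA muscle it was 9.61 and 8.87 FPKM at ZT0 and 2.37 and 3.97 at ZT12. All 4 ZT12 samples lay below all 4 ZT0 samples in both treatments. The log2 difference was -1.74 ± 0.24 (SE, n = 4 and 4; limma adjusted p = 0.332), or 3.33-fold lower at ZT12. In wild-type, Arntl fell by 2.77 on the log2 scale (limma adjusted p = 4.7e-11), from 12.0 ± 2.66 to 1.72 ± 0.364 FPKM (SD, n = 8 and 7). The RE-RE means were 11.0 ± 2.41 FPKM at ZT0 and 3.31 ± 0.844 at ZT12 (SD, n = 4 each). The difference between the genotypes' log2 differences was 1.03 ± 0.26 (SE), which did not pass (limma adjusted p = 0.920).

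Among the partners of BMAL1, Clock was 7.74 and 4.75 FPKM in sham muscle at ZT0 and 3.94 and 2.40 at ZT12, and 3.53 and 3.40 at ZT0 and 2.20 and 2.01 at ZT12 in 6-OHDA muscle. Each treatment had both ZT12 values below both ZT0 values, but sham ZT12 overlapped 6-OHDA ZT0. The log2 difference of Clock was -0.85 ± 0.24 (SE), beside -0.93 in wild-type.

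Npas2, which can stand in for CLOCK, differed from that pattern. Its RE-RE levels were 1.93 and 1.495 FPKM in sham muscle at ZT0 and 0.576 and 1.97 at ZT12, and 2.43 and 1.19 at ZT0 and 1.61 and 2.49 at ZT12 in 6-OHDA muscle. The time groups overlapped throughout, and the log2 difference was -0.22 ± 0.44 (SE). In wild-type, Npas2 fell by 3.40 on the log2 scale (limma adjusted p = 1.9e-07), from 1.14 ± 0.310 to 0.0999 ± 0.0276 FPKM (SD, n = 8 and 7). The genotypes' differences were 3.18 apart (95% interval 1.99 to 4.36), 1 of the 2 smallest adjusted p of that test over all genes and yet not past the threshold (limma adjusted p = 0.0991). Without sham sample 3, which had the lowest Npas2 level of the 8 (0.576 FPKM), the gap was 3.62. That fit leaves 1 sham sample at ZT12, so only its size is given. Arntl2, a paralogue of Arntl, was between 0.4996 and 1.78 FPKM in the 8 samples, with a log2 difference of 0.16 ± 0.41 (SE).

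The period genes, E-box targets whose proteins repress BMAL1 and CLOCK, were higher at ZT12. Per2 was 0.559 and 1.5 FPKM in sham muscle at ZT0 and 1.83 and 4.51 at ZT12, and 0.736 and 1.23 at ZT0 and 3.65 and 2.91 at ZT12 in 6-OHDA muscle. The Per2 groups did not overlap, and the log2 difference was 1.70 ± 0.40 (SE; limma adjusted p = 0.847) against 2.92 in wild-type.

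Per1 was 1.12 and 6.83 FPKM at ZT0 and 3.53 and 11.6 at ZT12 in sham muscle, and 1.69 and 3.86 at ZT0 and 11.0 and 9.69 at ZT12 in 6-OHDA muscle. Sham muscle gave overlapping values and 6-OHDA muscle did not. The log2 difference of Per1 was 1.61 ± 0.59 (SE), with 2.73 in wild-type. Per3, whose window above holds the 2 D-boxes, differed by 1.26 ± 0.49 (SE) with overlapping groups, beside 2.19 in wild-type.

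Ciart, a repressor of BMAL1 and CLOCK whose window above holds the 3 E-boxes, was 0.431 and 0.528 FPKM in sham muscle at ZT0 and 2.37 and 2.66 at ZT12. In 6-OHDA muscle it was 0.611 and 0.922 FPKM at ZT0 and 2.90 and 1.35 at ZT12. All ZT12 values lay above all ZT0 values. The log2 difference was 1.88 ± 0.36 (SE; limma adjusted p = 0.501), beside 2.31 in wild-type. The cryptochromes Cry1 and Cry2 differed by -0.25 ± 0.19 and 0.43 ± 0.28 (SE), and the casein kinases Csnk1d and Csnk1e, which act on the period proteins, by -0.17 ± 0.24 and 0.12 ± 0.24 (SE), all with overlapping groups.

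Of the D-box factors, the PAR bZIP activators through which the loop passes its rhythm on, Dbp stood out. It was 2.93 and 5.60 FPKM in sham muscle at ZT0 and 23.7 and 24.0 at ZT12, and 3.79 and 13.1 at ZT0 and 27.9 and 19 at ZT12 in 6-OHDA muscle. No ZT12 value reached down to the ZT0 values. The log2 difference was 2.13 ± 0.41 (SE; limma adjusted p = 0.501), 4.38-fold, against a rise of 3.39 in wild-type.

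Its relatives Tef and Hlf did not share this separation. Tef was 23 and 35.6 FPKM in sham muscle at ZT0 and 39.1 and 46.1 at ZT12, but 20.8 and 36.9 at ZT0 and 32.6 and 24.7 at ZT12 in 6-OHDA muscle. Its log2 difference was 0.30 ± 0.27 (SE), beside a rise of 1.01 in wild-type. Hlf was 1.38 and 1.79 FPKM at ZT0 and 2.52 and 2.13 at ZT12 in sham muscle, and 0.255 and 1.81 at ZT0 and 0.654 and 0.305 at ZT12 in 6-OHDA muscle. The sham values of Hlf were higher at ZT12 and the 6-OHDA values overlapped, and the log2 difference was -0.02 ± 0.59 (SE) where wild-type rose by 1.80. Nfil3, the repressor that competes for D-boxes and whose window above holds a ROR element, differed by -0.58 ± 0.34 (SE), by -1.20 in sham and 0.03 in 6-OHDA muscle.

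The nuclear receptors and DEC factors of the second loop showed the least separation. Nr1d1, which encodes REV-ERB alpha, was 6.20 and 23.6 FPKM in sham muscle at ZT0 and 4.24 and 10.1 at ZT12, and 16.9 and 29.5 at ZT0 and 9.94 and 13.0 at ZT12 in 6-OHDA muscle. The 6-OHDA values separated, the sham values did not, and the log2 difference of Nr1d1 was -0.93 ± 0.44 (SE) beside -0.02 in wild-type. Nr1d2 (REV-ERB beta) differed by 0.17 ± 0.38 (SE) where wild-type rose by 1.01. Rora, an activator at the same element, differed by -0.49 ± 0.35 (SE). Of the E-box-binding repressors, Bhlhe41 differed by 0.61 ± 0.23 (SE), with a rise of 0.86 in wild-type, and Bhlhe40 by 0.03 ± 0.34 (SE).

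**Figure D1:**
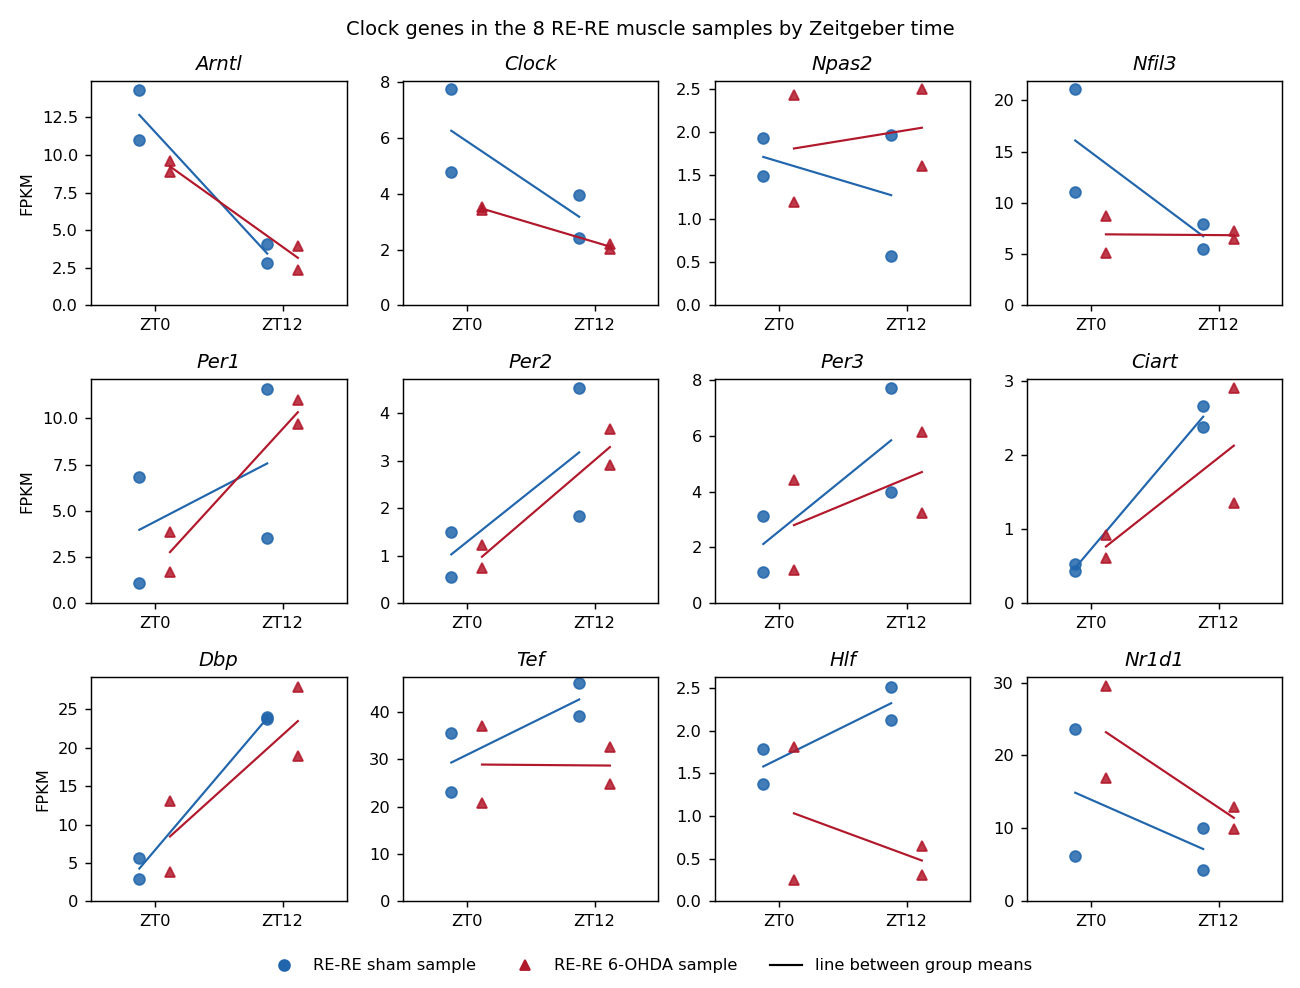
FPKM of 12 clock genes in each RE-RE sample at ZT0 and ZT12, with circles for sham, triangles for 6-OHDA and lines joining the group means. Arntl lies lower and Dbp, Ciart and Per2 higher in all 4 ZT12 samples, whereas Npas2, Tef and Hlf overlap.

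Over the 4 clock lists, 23 of 25 members were tested (Fbxl21 and Rorb were not). At an unadjusted p under 0.05, 6 were higher (Per1, Per2, Per3, Ciart, Dbp and Bhlhe41) and 2 lower (Arntl and Clock). Of all genes, 1.13% were higher and 2.25% lower at that p. Groups did not overlap in 3 higher and 1 lower gene, read against the 0.638% and 0.828% of all genes. In wild-type, 11 of the 23 rose and 5 fell by the adjusted p. The median size of the log2 difference, regardless of sign, was 0.44 for RE-RE, beside 0.91 for wild-type, and it was smaller in RE-RE for 18 of the 23. The test of the difference between genotypes passed for none of the 23, with 7 at an unadjusted p under 0.05. Over all genes that test passed for 0 (0%), with 326 genes (2.7%) at an unadjusted p under 0.05 whose ZT12 minus ZT0 difference was lower in RE-RE and 148 (1.23%) whose difference was higher.

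**Figure D2:**
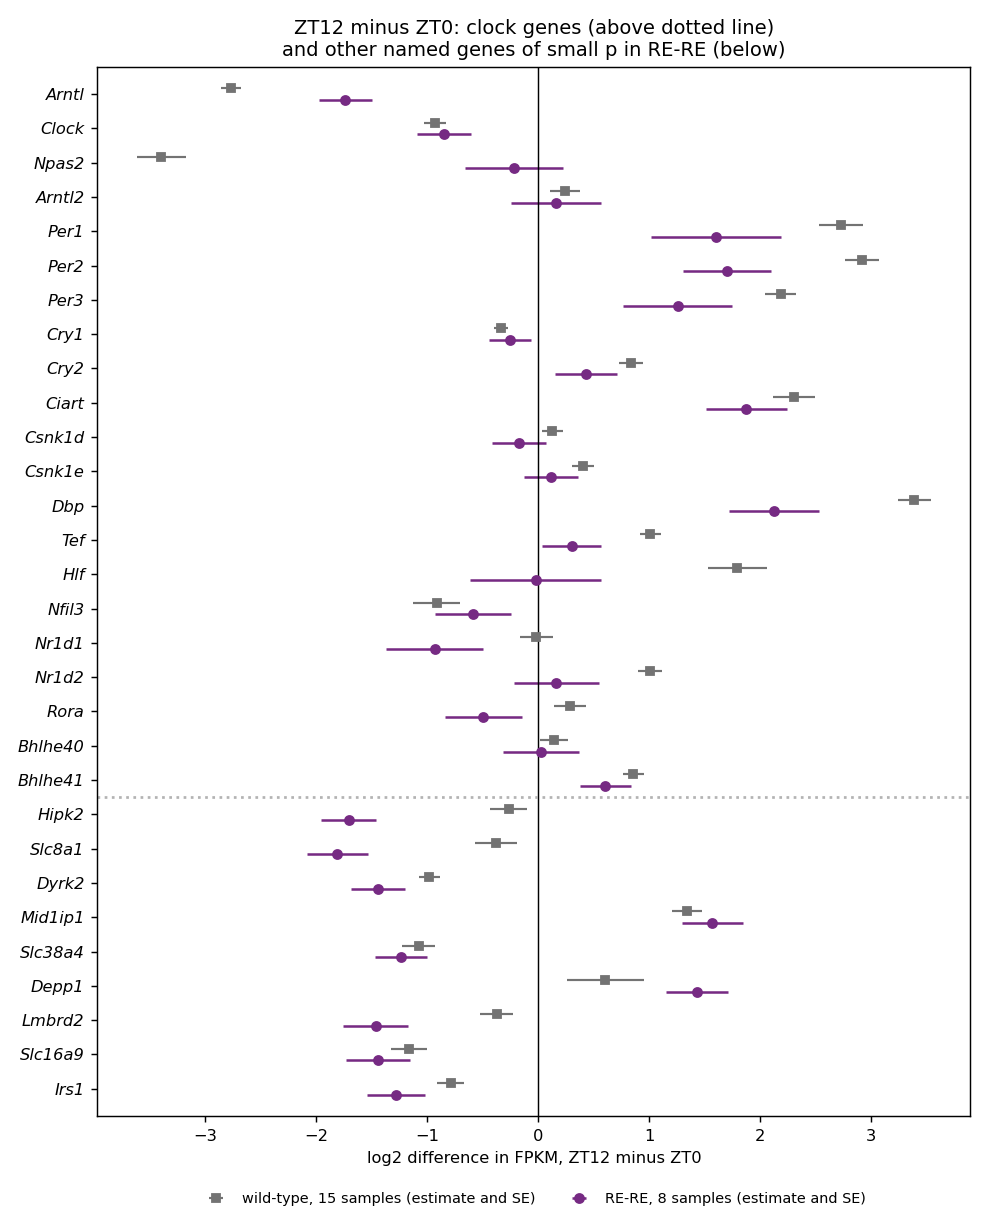
Log2 difference in FPKM, ZT12 minus ZT0, with its SE for 21 clock genes and the 9 other named genes, those of smallest p among protein-coding genes above a minimum level, in RE-RE (circles, 8 samples) and wild-type (squares, 15 samples). Npas2, Hlf, Tef and Nr1d2 lie near 0 in RE-RE and away from 0 in wild-type. Hipk2 and Slc8a1, which were picked by small p in RE-RE, lie further from 0 in RE-RE than in wild-type.

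Named next are the 12 genes of smallest p among protein-coding genes whose average log2 FPKM reached 1 at the time of higher level; 9 of them lie outside the loop. In 8 of these 9 the ZT0 and ZT12 samples did not overlap, where 0.638% of all genes separated upward and 0.828% downward. The 9 were picked by small p in these same samples. Neither the count nor the size of their RE-RE differences beside wild-type therefore gives separate support. None of the 9 passed the adjusted test (limma adjusted p 0.332 to 0.628). Hipk2 (chr6:38694390-38876165, minus strand), a protein kinase that acts on transcription factors, was 3.89 and 5.22 FPKM in sham muscle at ZT0 and 1.97 and 1.37 at ZT12, and 3.49 and 4.34 at ZT0 and 0.845 and 1.17 at ZT12 in 6-OHDA muscle. Every ZT12 sample lay below every ZT0 sample. The log2 difference of Hipk2 was -1.71 ± 0.25 (SE), beside -0.26 in wild-type, a gap of -1.44 ± 0.43 (SE) that did not pass (limma adjusted p = 0.944).

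Slc8a1, the sodium-calcium exchanger of the cell membrane, was 2.37 and 2.62 FPKM at ZT0 and 0.774 and 0.800 at ZT12 in sham muscle, and 2.01 and 2.45 at ZT0 and 0.433 and 0.716 at ZT12 in 6-OHDA muscle. The replicates lay close together, and the log2 difference was -1.81 ± 0.27 (SE), beside -0.38 in wild-type (difference between genotypes, limma adjusted p = 0.944). Dyrk2, another protein kinase, was 12.5 and 18.8 FPKM at ZT0 and 5.90 and 5.65 at ZT12 in sham muscle, and 11.4 and 12.7 at ZT0 and 3.20 and 5.79 at ZT12 in 6-OHDA muscle. Its log2 difference was -1.44 ± 0.24 (SE), and wild-type fell by 0.98 (limma adjusted p = 1.9e-05).

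Genes of insulin signalling and transport followed. Irs1, the adaptor that carries the insulin signal from its receptor, was 8.84 and 12.7 FPKM at ZT0 and 5.52 and 2.87 at ZT12 in sham muscle, and 5.82 and 7.34 at ZT0 and 3.39 and 2.54 at ZT12 in 6-OHDA muscle. Its log2 difference was -1.28 ± 0.26 (SE), and wild-type fell by 0.79 (limma adjusted p = 0.00096). The amino acid transporter Slc38a4 differed by -1.24 ± 0.24 and the monocarboxylate transporter family gene Slc16a9 by -1.44 ± 0.29 (SE), with falls of 1.08 and 1.16 in wild-type. Lmbrd2 differed by -1.46 ± 0.29 (SE) with overlapping groups.

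Mid1ip1, whose protein activates acetyl-CoA carboxylase at the start of fatty acid synthesis, was 3.14 and 7.07 FPKM at ZT0 and 13.2 and 19.2 at ZT12 in sham muscle, and 5.67 and 5.38 at ZT0 and 15.2 and 13.8 at ZT12 in 6-OHDA muscle. All ZT12 values were higher, and the log2 difference was 1.57 ± 0.28 (SE) beside a rise of 1.34 in wild-type. The FoxO target Depp1 was 2.06 and 3.14 FPKM at ZT0 and 7.80 and 7.49 at ZT12 in sham muscle, and 4.35 and 4.68 at ZT0 and 16.3 and 7.4 at ZT12 in 6-OHDA muscle. Its log2 difference was 1.43 ± 0.28 (SE), and its wild-type difference of 0.61 did not pass (limma adjusted p = 0.364).

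Among known outputs of the muscle clock, 24 of 25 were tested and none passed. At an unadjusted p under 0.05, 2 of the 24 were higher and 2 lower, where 1.13% and 2.25% of all genes were. The median log2 difference was -0.27, against -0.03 over all genes and 0.48 for the same genes in wild-type. By the adjusted p, 11 of them rose and 3 fell in wild-type. In RE-RE, 7 were higher at an unadjusted p under 0.05 without 6-OHDA sample 2 or with age as a covariate. At that p, 6 were lower without sham sample 1 and 4 without sham sample 4, and 1 was higher without sham sample 2 or 6-OHDA sample 3. The median was -0.01 without sham sample 2, -0.11 without sham sample 3, -0.16 without 6-OHDA sample 3 and -0.10 without 6-OHDA sample 2. Slc25a34, a mitochondrial carrier family gene, was 5.95 and 8.38 FPKM at ZT0 and 3.50 and 4.38 at ZT12 in sham muscle, and 8.46 and 16.2 at ZT0 and 2.17 and 2.35 at ZT12 in 6-OHDA muscle. All ZT12 values lay below all ZT0 values, a log2 difference of -1.61 ± 0.35 (SE).

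In wild-type Slc25a34 was 2.89 ± 0.852 FPKM at ZT0 and 6.45 ± 1.83 at ZT12 (SD, n = 8 and 7), a rise of 1.19 (limma adjusted p = 0.00068). The gap between genotypes was -2.80 (95% interval -3.81 to -1.79), the smallest p of that test over all genes, which did not pass (limma adjusted p = 0.0991). Ppp1r3c, which targets a phosphatase to glycogen, was lower at ZT12 within each treatment, with a log2 difference of -1.01 ± 0.29 (SE) and a fall of 1.69 in wild-type.

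The genes of fatty acid uptake, storage and oxidation were lower at ZT12 throughout the list. Of 25 tested of 27, all 25 had a negative log2 difference and 12 had an unadjusted p under 0.05, where 2.25% of all genes did, but none passed the adjusted test and only Plin5 had groups that did not overlap. The median log2 difference was -0.61, -0.35 in sham and -0.90 in 6-OHDA muscle, beside medians over all genes of -0.03 and -0.05. In sham muscle alone 22 of the 25 were lower, 1 at an unadjusted p under 0.05, where 131 of 12078 genes were at that p. In 6-OHDA muscle alone 24 were lower, 11 at that p, where 258 of all genes were. In wild-type the median of the same genes was 0.34, with 23 of the 25 higher at ZT12 and 7 risen by the adjusted p. The difference between genotypes had a median of -0.89 over the list (all genes -0.04), with 17 of 25 at an unadjusted p under 0.05, where 2.7% of all genes were, and none past the adjusted p.

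Pdk4, the kinase that closes pyruvate dehydrogenase when fat is burnt, was 260 and 440 FPKM at ZT0 and 73.8 and 263 at ZT12 in sham muscle, and 413 and 676 at ZT0 and 68.2 and 128 at ZT12 in 6-OHDA muscle. Only the sham ZT12 value of 263 reached the ZT0 range. The log2 difference was -1.89 ± 0.47 (SE; limma adjusted p = 0.869), beside 0.44 in wild-type.

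Plin5, which coats lipid droplets at mitochondria, was 13.2 and 13.0 FPKM at ZT0 and 7.62 and 10.5 at ZT12 in sham muscle, and 11.9 and 18.2 at ZT0 and 5.90 and 3.41 at ZT12 in 6-OHDA muscle. Its log2 difference was -1.13 ± 0.31 (SE). In wild-type Plin5 rose by 1.56 (limma adjusted p = 0.00035), from 4.42 ± 1.46 to 12.6 ± 3.67 FPKM (SD, n = 8 and 7), and the gap between genotypes was -2.69 ± 0.55 (SE; limma adjusted p = 0.278). Acot2, a mitochondrial thioesterase that frees fatty acids from coenzyme A, differed by -1.39 ± 0.42 in RE-RE (SE) and rose by 1.05 in wild-type, with a gap of -2.44 ± 0.51 (SE; limma adjusted p = 0.278). Of the other members, Fabp3, which carries fatty acids in the cytosol, and Acadvl, which opens the oxidation of long chains, had differences of -0.96 and -0.70; both were chosen after their values were seen.

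The count for fatty acid use moved with single samples and with age. Without 6-OHDA sample 2 or without 6-OHDA sample 4, 5 genes were at an unadjusted p under 0.05, with medians of -0.41 and -0.49. With age as a further covariate 23 were lower, 5 of them at that p, with a median of -0.41. The summed level of the list was 2623 and 2517 FPKM at ZT0 and 2194 and 1766 at ZT12 in sham muscle, and 2116 and 3196 at ZT0 and 1303 and 1041 at ZT12 in 6-OHDA muscle. The 12 fibre markers were also lower at ZT12 in all 12 cases, with a median of -0.32 (-0.56 in 6-OHDA muscle), and the nuclear genes of oxidative phosphorylation in 25 of 32 with a median of -0.10; the part of fibre content in the difference was not tested.

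**Figure D3:**
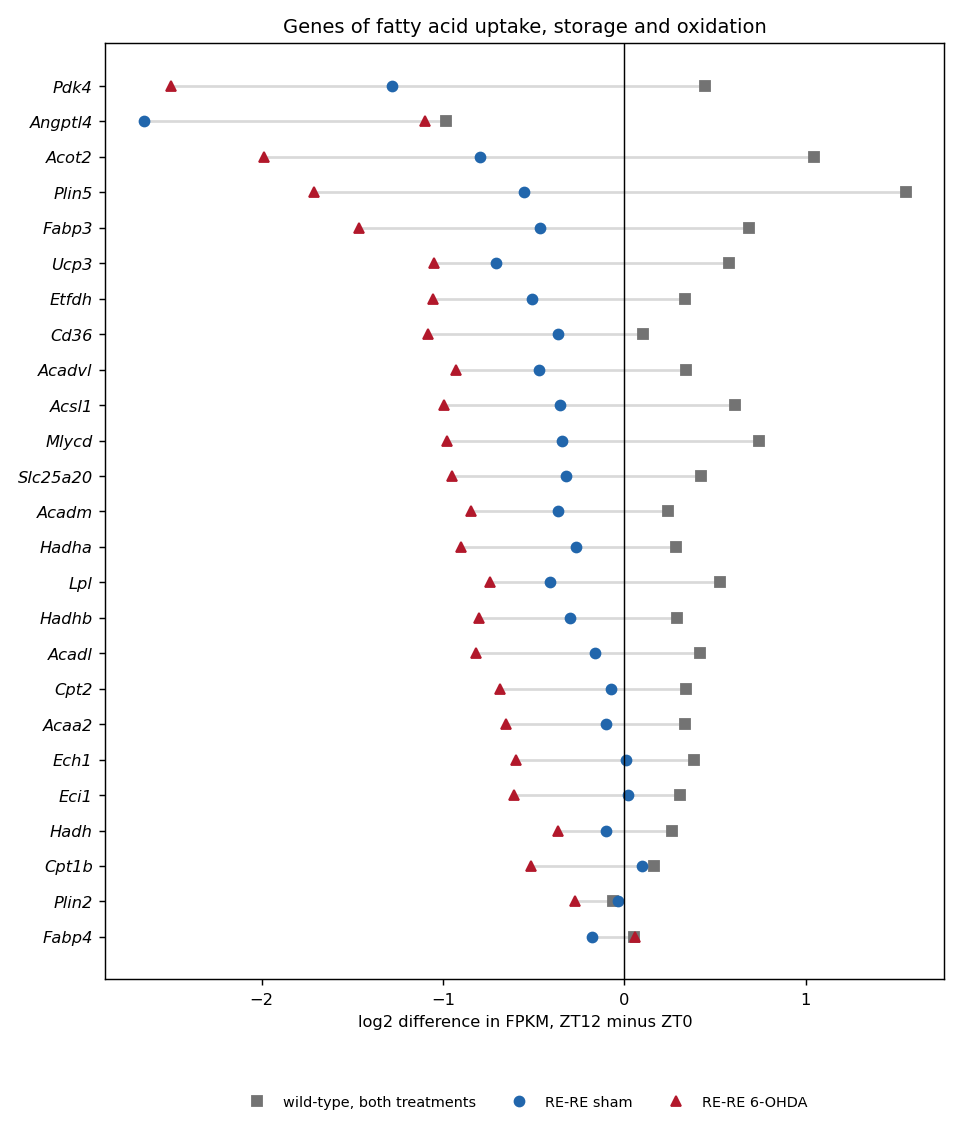
Log2 difference in FPKM, ZT12 minus ZT0, of the 25 tested genes of fatty acid use in RE-RE sham (circles), RE-RE 6-OHDA (triangles) and wild-type (squares) muscle. The RE-RE points lie mostly left of 0, with medians of -0.35 and -0.90, and the wild-type points mostly right of it, with a median of 0.34.

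Other metabolic lists had smaller medians. Of 26 genes of the insulin and fasting response, 20 were lower, 5 of them at an unadjusted p under 0.05 (Irs1 and Pdk4 among them) where 2.25% of all genes were, with a median log2 difference of -0.27. The median was -0.50 without sham sample 1, -0.43 without sham sample 4 and -0.18 without 6-OHDA sample 2. Leaving out sham sample 2, sham sample 3, 6-OHDA sample 2 or 6-OHDA sample 3 left 3 lower genes at that p. Glycolysis genes had 12 of 19 lower and a median of -0.07, and glycogen genes 15 of 18 lower and a median of -0.30, with 0 and 1 at that p. Fatty acid and triglyceride synthesis had 12 of 20 higher with a median of 0.06. Within it Thrsp, a lipogenic nuclear protein, differed by 0.92 ± 0.27 and Gpam, which starts triglyceride synthesis, by -0.85 ± 0.32 (SE), so the list held both directions.

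Genes induced by glucocorticoids, the adrenal hormones whose release peaks before the active phase in mice, were higher in 12 of 19. Their median log2 difference was 0.39, beside 0.50 in wild-type, where 16 were higher and 8 rose by the adjusted p. At an unadjusted p under 0.05, 4 were higher and 1 lower, where 1.13% and 2.25% of all genes were; 2 were higher without 6-OHDA sample 3. The median was 0.23 without sham sample 1 and 0.25 without 6-OHDA sample 4. Arrdc2, an alpha-arrestin gene, was 2.09 and 13.3 FPKM at ZT0 and 17.7 and 43.2 at ZT12 in sham muscle, and 2.39 and 5.13 at ZT0 and 52.6 and 19.2 at ZT12 in 6-OHDA muscle. Its groups did not overlap, and the log2 difference of 2.78 ± 0.61 (SE; limma adjusted p = 0.658) came beside a rise of 3.42 in wild-type. Of the immediate early and CREB genes, 11 of 19 were lower with a median of -0.05, and the 1 gene at that p was Per1, described above. Ier5, of this list, differed by 0.58 ± 0.27 (SE). The metallothionein Mt2 differed by 1.63 ± 0.61 (SE), with sham values of 6.26 and 2.07 FPKM at ZT0 and 12.4 and 7.94 at ZT12, and 6-OHDA values of 14.3 and 1.67 at ZT0 and 16.1 and 18.3 at ZT12. In the adrenergic and cAMP list, 15 of 25 were tested, 1 was higher and 3 lower at that p, and the phosphodiesterases Pde4b and Pde4d differed by -0.81 ± 0.23 and -0.98 ± 0.35 (SE).

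Slow-fibre genes, which encode the contractile proteins of type I fibres and are scarce in this fast muscle, were higher at ZT12 in 11 of 12, 7 of them at an unadjusted p under 0.05 where 1.13% of all genes were. None passed the adjusted test and none had groups that did not overlap. The median log2 difference was 0.93, 0.54 in sham and 1.33 in 6-OHDA muscle, against -0.22 in wild-type. Tnnt1, slow troponin T, was 2.91 and 3.64 FPKM at ZT0 and 9.52 and 4.79 at ZT12 in sham muscle, and 32.6 and 15.4 at ZT0 and 93.3 and 124 at ZT12 in 6-OHDA muscle. The 6-OHDA samples lay above the sham samples at each time, and within each treatment both ZT12 values lay above both ZT0 values. The log2 difference of Tnnt1 was 1.66 ± 0.36 (SE; limma adjusted p = 0.658), and that of Tpm3, slow tropomyosin, 0.93 ± 0.26 (SE).

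Summed over the list, slow-fibre message was 138 and 125 FPKM at ZT0 and 240.3 and 113 at ZT12 in sham muscle, and 366 and 239 at ZT0 and 691 and 810.0 at ZT12 in 6-OHDA muscle. The sham times overlapped, so the separation in the sum came from 6-OHDA muscle. Without treatment as a covariate 0 of 12 were at an unadjusted p under 0.05, and with age as a further covariate 4 were, with 9 of 12 higher and a median of 0.85. Fast-fibre genes had 13 of 17 lower, a median of -0.11 and 0 at that p.

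**Figure D4:**
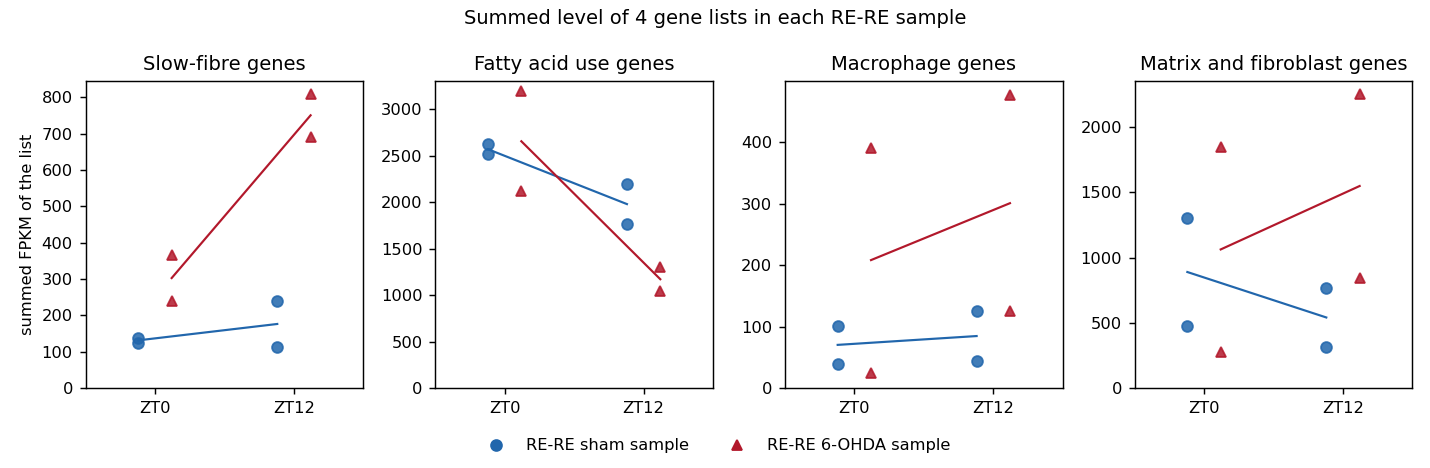
Summed FPKM of 4 gene lists in each RE-RE sample at ZT0 and ZT12, with circles for sham, triangles for 6-OHDA and lines joining group means. Slow-fibre sums are highest in the 2 6-OHDA ZT12 samples (691 and 810.0 FPKM), where fatty acid use sums are lowest (1303 and 1041 FPKM); macrophage and matrix sums vary as much within a group as between times.

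Markers of other cells differed widely between samples of the same group. Macrophage markers, 20 in the table, summed to 101 and 40.1 FPKM at ZT0 and 125 and 44.0 at ZT12 in sham muscle, and to 391 and 25.4 at ZT0 and 125 and 477 at ZT12 in 6-OHDA muscle. At most 1 of the 20 was at 0 in any sample. Of 18 tested, 17 were higher at ZT12 with a median log2 difference of 0.73 and 0 at an unadjusted p under 0.05. Without 6-OHDA sample 2, 12 of 18 were instead lower (median -0.04), and so were 15 with age as a covariate (median -0.21) and 10 with array weights, which count samples far from the fit for less (median -0.03). The median was 0.19 without 6-OHDA sample 4, and without 6-OHDA sample 1 it was 1.34, with 4 higher at that p. Matrix and fibroblast genes summed to 1302 and 477 FPKM at ZT0 and 317 and 765 at ZT12 in sham muscle, and to 1846 and 278 at ZT0 and 843 and 2253 at ZT12 in 6-OHDA muscle. Their median was 0.15 (18 of 22 higher), or -0.61 in sham and 0.99 in 6-OHDA muscle. It was -0.58 without 6-OHDA sample 2 and -0.24 without 6-OHDA sample 4, 0.57 without sham sample 1 or sham sample 3, 0.59 without 6-OHDA sample 1 and 0.27 without 6-OHDA sample 3. With age as a covariate all 22 were lower (median -0.70). With the mean log2 level of these 2 lists as a covariate, 521 of 12078 genes were at an unadjusted p under 0.05. Among them were 6 of 12 slow-fibre genes and 12 of 25 fatty acid use genes. Without the covariate 409 genes were at that p, with 7 slow-fibre and 12 fatty acid use genes among them. With the covariate Dbp alone passed the adjusted test (log2 difference 2.35, limma adjusted p = 0.0107). Regeneration genes were higher in 14 of 16, 1 of them at an unadjusted p under 0.05. Their median was 0.46, or 0.15 in sham and 0.94 in 6-OHDA muscle. Their summed level overlapped between times, with 1001.5 to 3365.4 FPKM at ZT0 and 737.92 to 2792.2 at ZT12. The part of regeneration genes in the slow-fibre difference was not tested.

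Whether the time difference changed with 6-OHDA was tested as an interaction. No gene passed (0%), with 75 at an unadjusted p under 0.05 and a smallest adjusted p of 0.420. Among named protein-coding genes the smallest p belonged to Nr4a3, an orphan nuclear receptor gene induced by exercise. It was 5.17 and 7.71 FPKM at ZT0 and 2.04 and 0.722 at ZT12 in sham muscle, and 0.875 and 0.975 at ZT0 and 1.88 and 2.08 at ZT12 in 6-OHDA muscle. The direction was opposite in the treatments, a change of 3.46 ± 0.72 (SE, log2; limma adjusted p = 0.9998). Lrfn4 had a change of 2.78 ± 0.62 and Igfn1 of -2.73 ± 0.71 (SE). For Arntl the change with 6-OHDA was 0.29 ± 0.53 (SE, 95% interval -0.89 to 1.48), an interval that holds 0.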

How the data were processed

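Total RNA of tibialis anterior muscle was sequenced. Per the submitters' processing notes, the build is GRCm38 and the tools are edgeR 3.30.0, featureCounts 1.6.2, HISAT2 2.1.0, FastQC 0.11.8 and Trim Galore 0.5.0; their settings and any scaling between samples are not given in the sources used here. The deposited table holds log2 values of FPKM, as log2(FPKM + 0.01), for 14500 genes, of which 14435 matched the GENCODE annotation. limma 3.58.1 (R 4.3.3) was fitted with trend to the deposited log2 values of the 8 RE-RE samples, with time and treatment as terms and 5 residual degrees of freedom, two-sided, adjusted over all genes tested. Fold changes are on the log2(FPKM + 0.01) scale. The genotype difference used all 23 samples with weights per genotype. Whole reads recovered from low values (86.5% to 94.8% whole within 0.1 read) gave the depth. Named were the clock genes (2 of those tested are not reported singly here), the 12 genes of smallest p among protein-coding genes with a symbol whose average log2 FPKM reached 1 at the time of higher level, up to 2 genes of smallest p per list, and 3 for each interaction. The members and lists were chosen with earlier results of these data known. The fit was tested on simulated data. Alternatives covered scale, filter, scaling, weights, covariates, test and leaving out each sample.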

Additional observations from a re-analysis of the deposited data

Results flagged for a closer look

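In 4 of the 92 sets of 4 samples examined (46 genes at 2 times), 1 sample lay far from the other 3; about 1 set in 20 is set apart in this way by chance. Dyrk2 at ZT0 was 18.8 FPKM in sham sample 2, with 11.4 to 12.7 in the others. Dyrk2 at ZT12 was 3.20 FPKM in 6-OHDA sample 3, with 5.65 to 5.90 in the others. Depp1 at ZT12 was 16.3 FPKM in the same 6-OHDA sample 3, with 7.4 to 7.80 in the others. Thrsp at ZT0 was 21.5 FPKM in 6-OHDA sample 1, with 9.10 to 10.8 in the others. The direction of the time difference of Dyrk2, Depp1 and Thrsp stayed the same under every alternative run.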

How the results depend on the processing

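The number of genes past the adjusted p for time in RE-RE was 0 under most alternatives. It was 106 with array weights (33 higher, 73 lower) and 93 with the spread pooled over all 8 groups of the series (29 higher, 64 lower). These sets shared 53 genes, 50% and 57% of them, and in both Arntl passed (limma adjusted p = 0.0049 and 5.1e-05). Both sets come from the same RE-RE samples, so the overlap gives no separate support. The array weights ran from 0.19 (sham sample 3) to 6.53 (sham sample 4). The pooled spread took in the wild-type samples, whose median residual SD was 0.208 beside 0.410 in RE-RE. The count was 1 each without the variance trend, with the macrophage and matrix covariate and in sham muscle alone. For the difference between genotypes it was 6 without weights (Acot2, Acsl1, Mlycd, Plin5 and Slc25a34 lower, Npas2 higher) and 0 to 1 when leaving out 1 sample. With array weights 20 of 25 fatty acid use genes were lower at an unadjusted p under 0.05, in place of 12, while the genes at that p over the whole table went from 409 to 2292 of 12078. The cause was not tested. Of 46 named genes, 39 kept their direction under every alternative. The other 7 reversed in places. Hlf reversed to 0.0062 on log2(FPKM + 1), 0.0043 with median centring, 0.39 with array weights, 0.79 with age, 0.30 with the macrophage and matrix covariate, 0.56 in sham muscle alone, 0.56 without the 3 samples of low array weight, 0.11 on own totals of recovered reads and 0.10 with limma-voom. Npas2 reversed to 0.071 with array weights, 0.23 in 6-OHDA muscle alone and 0.0094 without those 3 samples. Arntl2 reversed to -0.017 with age and -0.37 in sham muscle alone. In 6-OHDA muscle alone Nfil3 was 0.032, Csnk1e -0.094, Nr1d2 -0.14 and Bhlhe40 -0.42. When leaving out 1 sample, Hlf ranged from -0.46 to 0.65, Npas2 from -0.51 to 0.22, Arntl2 from -0.088 to 0.48, Csnk1e from -0.074 to 0.27, Nr1d2 from -0.094 to 0.55 and Bhlhe40 from -0.28 to 0.33.

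ZT0 and ZT12 samples share no replicate numbers, and same-numbered sham and 6-OHDA samples differ in age. Their deviations from the group means went together only weakly (r = 0.113 over genes at ZT0 and 0.188 at ZT12). With 2 samples per group the deviations mirror each other, so the second pair adds nothing to r. With the replicate number as a block the count of genes past the adjusted p stayed at 0, with 236 genes at an unadjusted p under 0.05 in place of 409. Scaling by own totals of recovered reads, added after the data were seen as were limma-voom and leaving out wild-type samples, moved the median of all genes from -0.03 to 0.10; on that scale 24 of 25 fatty acid use genes were lower (median -0.48) and 12 of 12 slow-fibre genes higher (median 1.06). Each RE-RE difference rests on 2 samples per treatment and time, with a spread larger than in wild-type.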

Other observations

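The remaining gene lists had few members at an unadjusted p under 0.05 and none past the limma adjusted test. Cytosolic ribosomal protein genes were higher at ZT12 in 29 of 30, by a median log2 difference of 0.14 (0.28 in sham and -0.02 in 6-OHDA muscle), with 0 at that p. Temperature-sensitive genes, a list that pools heat-shock and cold-inducible genes, were lower in 13 of 16 with a median of -0.19 and 0 at that p. Atrophy and autophagy genes were lower in 16 of 18 with a median of -0.23, which was 0.02 in sham and -0.50 in 6-OHDA muscle. Genes of the acetylcholine receptor and of denervation, which are switched on when the motor nerve is lost, were higher in 13 of 16 with a median of 0.31 and 0 at that p. The unfolded protein and ATF4 genes had 9 of 18 higher and a median of 0.01. Genes of sarcoplasmic reticulum calcium handling, among them Slc8a1, were lower in 15 of 21 with a median of -0.17.

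Of the cell marker lists, Schwann cell genes were higher in 10 of 10 with a median of 0.34, but the median was -0.38 in sham and 0.99 in 6-OHDA muscle. Adipocyte genes had 6 of 9 higher with a median of 0.90, -0.01 in sham and 1.54 in 6-OHDA muscle. Endothelial genes had 8 of 18 higher with a median of -0.04. Dmd, which encodes the fibre protein dystrophin, was lower in all 4 ZT12 samples than in all 4 ZT0 samples, with a log2 difference of -0.79 ± 0.23 (SE, limma adjusted p = 0.999), while Neb, the giant filament protein nebulin, differed by -0.51 ± 0.31 (SE) with overlapping groups.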
